A study of Mus musculus with 8 samples.

Results

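The genes described here are 31 transcripts that mark position along the liver lobule, 15 perivenous and 16 periportal, out of 24197 genes listed for the series. They were taken as a named list of symbols, and all 31 were found in the table, each with reads in every library. The livers came from mice of 8 to 12 weeks on a mixed C57BL/6 x 129J background that carried a floxed Stat5a-Stat5b locus in all 4 groups. In KO males and KO females the locus was deleted by Cre recombinase under the albumin promoter, a transgene brought in from an FVB/N line, which directs deletion mainly to hepatocytes. Control males and control females were floxed mice, and whether they carried the transgene is not given in the sources used here. Each group has 2 libraries of total RNA depleted of ribosomal RNA, each made from pooled livers, and how many animals went into a pool is not stated. Spread between libraries is thus spread between pools.

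Blood enters the liver lobule beside the portal vein, rich in oxygen and nutrients, and leaves it by the central vein, and hepatocytes along this path carry out different work. Hepatocytes near the portal vein make urea from ammonia, release glucose and break down amino acids, whereas those around the central vein capture leftover ammonia as glutamine and hold many of the enzymes that oxidise drugs. Wnt ligands from endothelial cells of the central vein act through beta-catenin to switch on the perivenous programme. STAT5a and STAT5b are transcription factors activated by growth hormone in hepatocytes, and they are needed for many differences between male and female liver. Expression was measured in homogenised liver, so fewer cells of a zone and less RNA per cell cannot be told apart, and no value below has a position in the lobule.

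Levels are given as FPKM, reads scaled to transcript length and library total, for the deeper and the shallower library of a group, in that order. The deposited table holds only group means, and the reads of single libraries were recovered from them. Library totals ran from 6192515 in the shallower control male library to 34651386 in the deeper control female library, and a member had 5 to 84607 reads in a library. Stat5b, one of the targeted genes, had 0.684 and 1.03 FPKM in KO males against 1.95 and 3.41 in control males, and 1.77 and 1.11 FPKM in KO females against 3.88 and 2.90 in control females. Stat5a, the other target, had 0.130 and 0.227 FPKM in KO males against 0.600 and 1.16 in control males, and 0.499 and 0.120 FPKM in KO females against 0.920 and 0.804 in control females. KO libraries lay below the control libraries of the same sex for both targets. Hepatocyte markers such as albumin summed to 14206 to 19801 FPKM over 6 genes in every library, and cholangiocyte markers to 2.52 to 4.14 FPKM over 9 genes.

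Across all libraries the most abundant member was the perivenous Cyp2e1, the cytochrome P450 that oxidises ethanol and acetaminophen, with a mean of 1423 FPKM. The urea cycle genes Cps1 and Ass1 followed at 370 and 348 FPKM. The lowest members were the perivenous Slc22a3, an organic cation transporter gene, at 0.756 FPKM and the Wnt feedback gene Axin2 at 0.827 FPKM. The periportal genes together summed to 1091 and 1682 FPKM in KO males, against 1792 and 1874 FPKM in control males. In females they summed to 1438 and 1663 FPKM in KO livers, against 1845 and 1603 FPKM in control livers. The perivenous genes summed to 1783 and 2360 FPKM in KO males against 2244 and 2371 FPKM in control males, and to 2210 and 2212 FPKM in KO females against 2326 and 2268 FPKM in control females. The deeper KO male library had the lowest sum of all 8 for both sets, and Cyp2e1 alone gave 1171 of its 1783 perivenous FPKM.

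**Figure D1:**
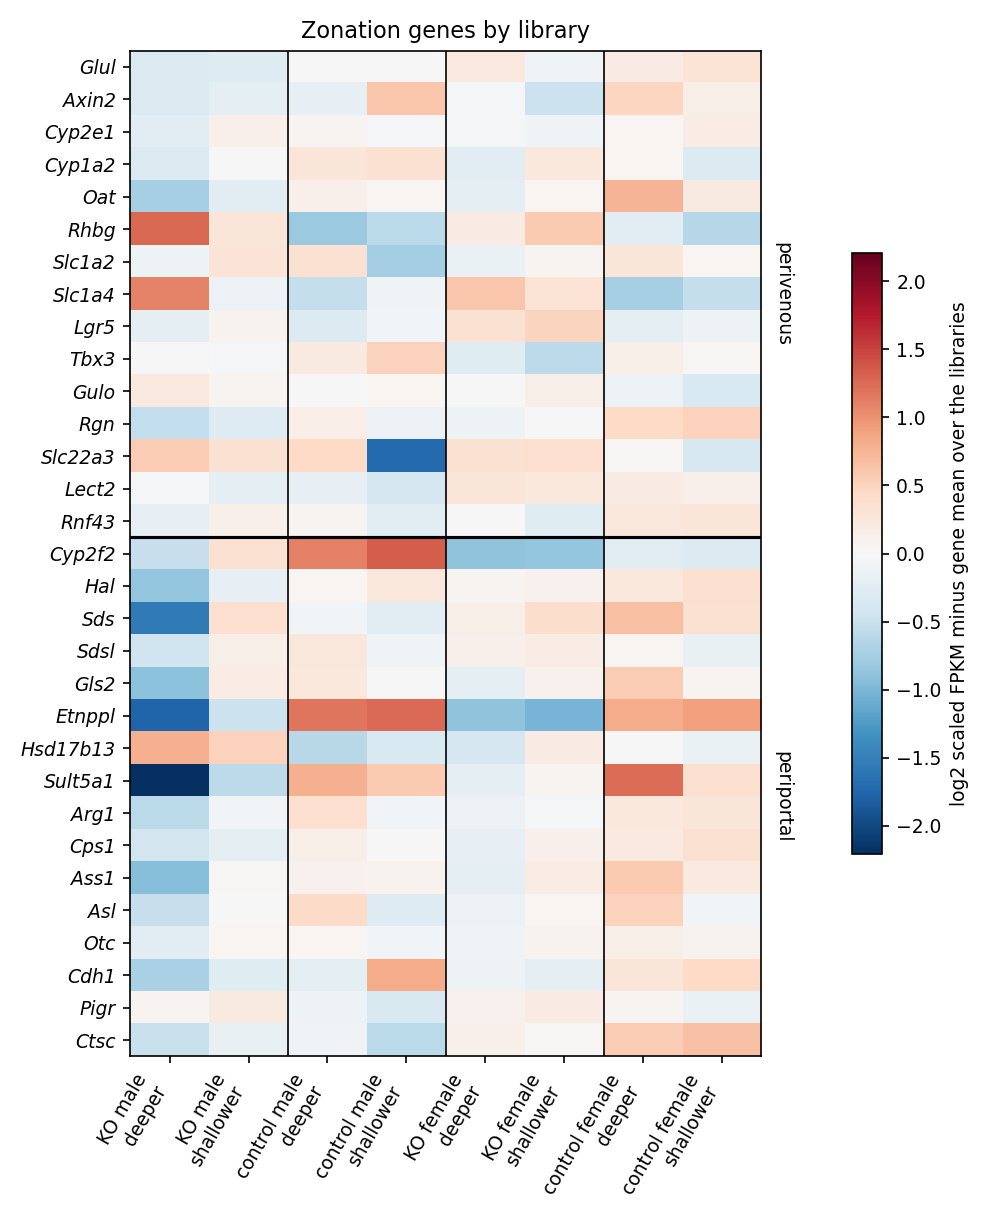
Each row is a zonation gene and each column a library; colour gives log2 scaled FPKM minus the gene's mean over the 8 libraries, red higher and blue lower. The deeper KO male library is blue for most periportal genes, and Etnppl is blue in all 4 KO libraries.

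The male comparison asked how loss of STAT5 in hepatocytes changed the zonation genes in male liver. The periportal genes Etnppl, Cyp2f2 and Sult5a1 fell, while the periportal Hsd17b13 and the perivenous Rhbg rose. These 5 of 31 members were called in the authors' deposited table at an adjusted p under 0.05, against 2.18% of all 24197 genes. Of the 9699 genes at least as abundant as the lowest member, 4.23% were called. The remaining 26 members, among them all 5 urea cycle genes and Glul, did not pass. Limma voom on the recovered reads called 3 of the 31, Etnppl, Cyp2f2 and Hsd17b13, against 1.52% of 12980 genes. Limma on log2(FPKM + 1) called 0, against 0.305% of genes, with 7 members at an unadjusted p under 0.05.

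Etnppl encodes ethanolamine-phosphate phospho-lyase, which breaks down a precursor of phosphatidylethanolamine, and lies on chromosome 3 from 130320365 to 130338668 (mm9). It had 2.30 and 6.10 FPKM in KO males, against 17.6 and 20.9 FPKM in control males. Both KO libraries lay far below both control libraries. Its level was 4.58-fold lower by the authors' deposited table (adjusted p = 1.03e-07). By limma voom the log2 difference was -2.34 (standard error 0.32, adjusted p = 0.0111).

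Etnppl was low in KO females as well, with 4.50 and 4.05 FPKM against 13.6 and 13.7 FPKM in control females. The libraries of each female group were close together and the groups did not overlap. By the authors' deposited table the level was 3.5-fold lower in KO females (adjusted p = 1.29e-18). The limma voom log2 difference was -1.81 with a standard error of 0.32, and its adjusted p of 0.0687 did not pass.

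Cyp2f2, a cytochrome P450 known for activating naphthalene and a standard periportal marker, lies on chromosome 7 from 27904973 to 27918679 (mm9). It had 85.9 and 167.0 FPKM in KO males, against 260.2 and 345 FPKM in control males. Both KO male libraries were below both control male libraries, though they differed from each other. In the authors' deposited table Cyp2f2 was 2.37-fold lower in KO males (adjusted p = 0.000965). Limma voom put the log2 difference at -1.32 (standard error 0.24, adjusted p = 0.0334).

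In females the level of Cyp2f2 was lower in both genotypes. It had 70.4 and 71.5 FPKM in KO females, against 101.2 and 92.5 FPKM in control females. The groups did not overlap, and the fall in the authors' deposited table was 1.5-fold (adjusted p = 0.0459). Limma voom gave an adjusted p of 0.456 for it.

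Sult5a1, a member of the cytosolic sulfotransferase family, lies on chromosome 8 from 125666746 to 125682180 (mm9). It had 1.36 and 4.53 FPKM in KO males, against 10.6 and 10.4 FPKM in control males. In females it had 5.70 and 6.88 FPKM in KO livers, against 14.5 and 7.45 FPKM in control livers. The groups did not overlap in either sex, but the shallower control female library lay close to the KO libraries. Sult5a1 was 3.63-fold lower in KO males (adjusted p = 0.000494) and 1.94-fold lower in KO females (adjusted p = 0.0335), by the authors' deposited table. Neither passed by limma voom, with adjusted p of 0.0728 in males and 0.485 in females.

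Hsd17b13, a hydroxysteroid dehydrogenase family member found on lipid droplets of hepatocytes, went the other way from these periportal genes in males. It lies on chromosome 5 from 104384460 to 104406407 (mm9) and had 54.7 and 48.3 FPKM in KO males, against 20.3 and 27.9 FPKM in control males. The KO male libraries were the highest of all 8. It was 2.2-fold higher by the authors' deposited table (adjusted p = 0.000105), and limma voom gave a log2 difference of 1.13 (standard error 0.20, adjusted p = 0.0312).

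In females the Hsd17b13 libraries overlapped, with 25.8 and 37.8 FPKM in KO livers against 31.01 and 26.6 FPKM in control livers. The log2 ratio there was 0.0069 in the authors' deposited table (adjusted p = 1). The knockout difference in males exceeded that in females by 1.15 on the log2 scale, with a standard error of 0.28 by limma voom. That interaction had an unadjusted p of 0.00264 and an adjusted p of 0.663 over all 12980 genes, so a difference between the sexes did not pass. The voom interaction called 0 of 31 members, with 1 at an unadjusted p under 0.05. Over all genes tested by voom, 0% were called and 5.1% had an unadjusted interaction p under 0.05. Limma on log2(FPKM + 1) called 0.0111% of genes for the interaction, and none of the 31 members, with 1 at an unadjusted p under 0.05.

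Rhbg, a Rhesus glycoprotein that carries ammonia across the membrane of perivenous hepatocytes, lies on chromosome 3 from 88046795 to 88058606 (mm9). It had 6.92 and 3.72 FPKM in KO males, against 1.60 and 2.11 FPKM in control males. Both KO libraries lay above both control libraries, the deeper one well above the shallower. Rhbg rose 3.01-fold by the authors' deposited table (adjusted p = 0.000494), while limma voom gave a log2 difference of 1.53 (standard error 0.40) that did not pass (adjusted p = 0.119). In females Rhbg had 3.46 and 4.53 FPKM in KO livers against 2.41 and 1.74 FPKM in control livers. The female libraries did not overlap either, but the adjusted p of 0.0511 in the authors' deposited table missed the threshold.

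The female comparison asked the same question in female liver, and 4 of 31 members were called in the authors' deposited table, against 1.55% of all genes and 3.3% of those at least as abundant as the lowest member. Etnppl, Cyp2f2 and Sult5a1 fell in KO females as they did in KO males, and these comparisons share no library. The perivenous Slc1a4 was the 1 member that rose. Limma voom and limma on log2(FPKM + 1) both called 0 members in females, with 12 and 6 at an unadjusted p under 0.05. Over all genes these fits called 0.354% and 0.0333%.

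Slc1a4 encodes a transporter of neutral amino acids such as alanine and serine, on chromosome 11 from 20202182 to 20232716 (mm9). It had 1.26 and 1.01 FPKM in KO females, against 0.463 and 0.508 FPKM in control females. Both KO female libraries lay above both control female libraries. It rose 2.17-fold in females by the authors' deposited table (adjusted p = 0.00198). Limma voom gave a log2 difference of 1.12 (standard error 0.43) that did not pass (adjusted p = 0.458). Slc1a4 had only 63 and 30 reads in the control female libraries. In males it had 1.66 and 0.768 FPKM in KO livers against 0.533 and 0.823 FPKM in control livers. The male groups overlapped, and the adjusted p in the authors' deposited table was 0.541.

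**Figure D2:**
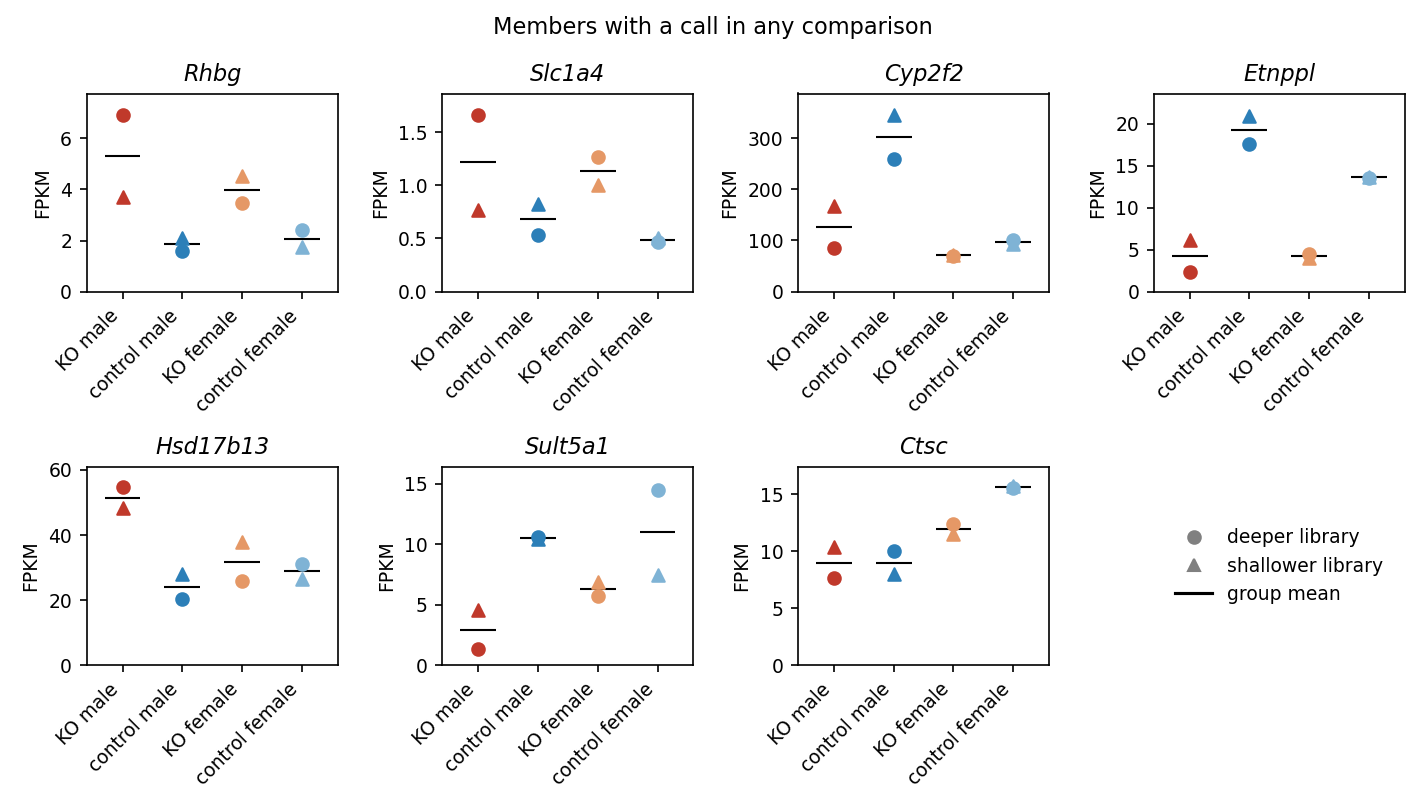
FPKM of the 7 members called in any of the 4 comparisons of the authors' deposited table; circles are the deeper and triangles the shallower library of a group, and lines are group means. Etnppl, Cyp2f2 and Sult5a1 lie lower in KO than in control libraries of the same sex, and Hsd17b13 is highest in KO males.

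Promoter sequences were at hand for 19 of the 31 members, 250 bases before a RefSeq transcript start on GRCm38.p6. They were searched on both strands for a STAT-type palindrome (TTCNNNGAA), a TCF/LEF-type site of beta-catenin partners with the letters CTTTGAT. The TATA box was searched as TATAAA, and the box named CCAAT by those letters. Shown, in the direction of transcription, are windows of the 3 genes called lower in KO livers of both sexes in the authors' table. None of these 3 windows holds any of these letters. Also shown is the window of Ctsc, the 1 member with a STAT-type match. Capitals mark that match, at position -236 from the start.
Etnppl (chr3:130617198-130617447, plus strand): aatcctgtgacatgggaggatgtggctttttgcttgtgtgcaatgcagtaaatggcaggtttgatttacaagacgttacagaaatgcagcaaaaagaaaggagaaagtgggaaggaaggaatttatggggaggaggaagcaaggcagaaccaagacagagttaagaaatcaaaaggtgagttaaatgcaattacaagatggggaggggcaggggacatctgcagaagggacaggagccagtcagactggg
Cyp2f2 (chr7:27119705-27119954, plus strand): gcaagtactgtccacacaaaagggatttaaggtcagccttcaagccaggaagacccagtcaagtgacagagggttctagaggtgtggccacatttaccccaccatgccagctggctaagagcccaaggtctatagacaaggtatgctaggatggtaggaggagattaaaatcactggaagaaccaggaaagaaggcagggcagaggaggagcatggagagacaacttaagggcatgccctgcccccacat
Sult5a1 (chr8:123158281-123158530, minus strand): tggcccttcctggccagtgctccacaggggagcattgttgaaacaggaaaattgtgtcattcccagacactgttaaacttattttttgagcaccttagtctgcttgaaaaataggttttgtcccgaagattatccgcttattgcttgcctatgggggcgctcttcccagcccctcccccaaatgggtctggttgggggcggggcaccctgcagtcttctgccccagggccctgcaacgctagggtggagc
Ctsc (chr7:88277835-88278084, plus strand): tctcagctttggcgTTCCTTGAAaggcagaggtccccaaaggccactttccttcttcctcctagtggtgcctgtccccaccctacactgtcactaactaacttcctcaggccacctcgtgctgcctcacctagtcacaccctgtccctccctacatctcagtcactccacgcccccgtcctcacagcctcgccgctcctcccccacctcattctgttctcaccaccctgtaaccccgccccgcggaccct
Among all 32851 promoter windows of the same length, 7.02% hold the STAT-type letters, 3.21% the TCF/LEF-type, 12.4% the TATA box and 33.8% the CCAAT box. Among the 19 members these letters were present in 1, 3, 3 and 5 genes, in the same order. A window without the letters says nothing about sites elsewhere.

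The urea cycle genes, which turn ammonia into urea in periportal hepatocytes, lay near or below the control level in KO males. Cps1, which makes carbamoyl phosphate from ammonia, had 269 and 337 FPKM in KO males against 386 and 402 FPKM in control males. Ass1, which makes argininosuccinate, had 172 and 359 FPKM in KO males against 345 and 384 FPKM in control males. Arg1, the arginase that releases urea, had 159 and 247 FPKM in KO males against 304 and 256 FPKM in control males. The deeper KO male library was the lowest of the 8 for each of these genes, and the shallower one lay closer to the controls.

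Asl, which splits argininosuccinate, had 51.4 and 79.3 FPKM in KO males against 96.9 and 67.2 FPKM in control males. Otc, which makes citrulline, had 68.0 and 89.6 FPKM in KO males against 81.1 and 85.6 FPKM in control males. In both genes the groups overlapped. None of the 5 urea cycle genes was called in the authors' deposited table, where their log2 ratios ran from -0.47 for Arg1 to -0.07 for Otc in males, with adjusted p of 0.898 or more. In females the log2 ratios ran from -0.41 for Ass1 to -0.10 for Otc in the authors' deposited table, with adjusted p of 0.804 or more.

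The other periportal amino acid enzymes also split the KO male libraries. Sds, the serine dehydratase that makes pyruvate, had 15.1 and 62.2 FPKM in KO males, against 42.0 and 41.8 FPKM in control males. The KO male libraries lay on either side of both controls. Gls2, the liver glutaminase that frees ammonia for the urea cycle, had 16.6 and 37.6 FPKM in KO males against 35.9 and 34.7 FPKM in control males, and again only the deeper KO library was low.

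Hal, the histidine ammonia-lyase, had 15.3 and 26.8 FPKM in KO males against 28.5 and 37.5 FPKM in control males, without overlap. Its adjusted p in the authors' deposited table was 0.390. Sdsl, a relative of Sds, had 1.23 and 1.96 FPKM in KO males against 1.96 and 1.74 FPKM in control males, and these overlapped.

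Of the remaining periportal genes, Cdh1, the gene of the adhesion molecule E-cadherin, had 2.20 and 3.22 FPKM in KO males against 3.06 and 7.14 FPKM in control males. The log2 ratio in the authors' deposited table was -0.83 (adjusted p = 0.237). Pigr, the receptor that carries polymeric immunoglobulin across epithelia, had 169 and 202 FPKM in KO males against 149 and 143 FPKM in control males, with an adjusted p of 1 in the authors' deposited table. Ctsc, the lysosomal protease cathepsin C, had 7.67 and 10.3 FPKM in KO males against 10.01 and 7.97 FPKM in control males, which overlapped. In females Ctsc had 12.4 and 11.5 FPKM in KO livers against 15.6 and 15.7 FPKM in control livers, without overlap. Cdh1 had 3.55 and 3.27 FPKM in KO females against 4.28 and 4.59 FPKM in control females, also without overlap. Their adjusted p for females in the authors' deposited table was 0.166 and 0.248. Pigr was higher in KO females, with 184 and 193 FPKM against 166 and 136 FPKM.

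As a set, the periportal genes had a median log2 ratio of -0.38 in KO males over control males in the authors' deposited table, and 14 of 16 ratios were below 1. In KO females over control females the median was -0.32 in the same deposited table, with 13 of 16 ratios below 1. Such counts were not particular to the KO comparisons. In control males over control females 13 of 16 periportal ratios were below 1, with a median log2 ratio of -0.18. In KO males over KO females 14 of 16 were below 1, with a median of -0.24. Over the 9699 genes at least as abundant as the lowest member, the medians in the authors' deposited table were -0.02 in males and 0.01 in females. The perivenous genes had medians of 0.04 in males, where limma voom gave -0.01, and -0.16 in females, with 7 of 15 and 8 of 15 ratios below 1 in the authors' deposited table. The female medians moved with the scaling of the libraries. By the ratio of mean FPKM and by voom with library totals, the periportal median was -0.18 by both in females, and the perivenous median was -0.018 and -0.027. The periportal shift in males was smaller than the difference between the KO male libraries.

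**Figure D3:**
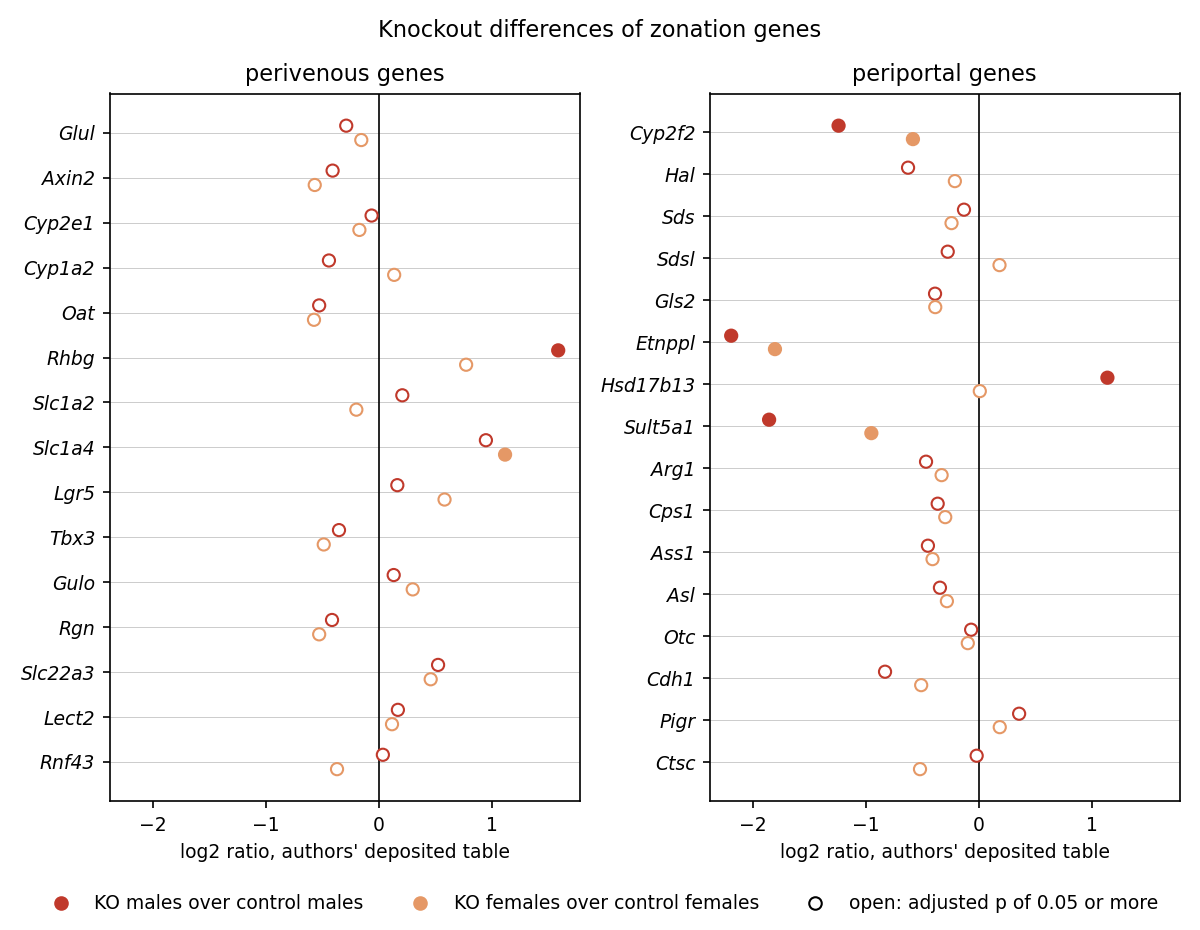
Log2 ratio of each zonation gene in the authors' deposited table, KO males over control males in red and KO females over control females in orange; filled points have an adjusted p under 0.05. Most periportal genes lie left of 0 with few filled points, and the perivenous genes lie on both sides.

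Within KO males, 15 of 16 periportal genes were lower in the deeper than in the shallower library, with a median log2 difference of -0.55 between the libraries after scaling. Hsd17b13 was the exception at 0.29, and Sds differed most at -1.93. Over the 9699 genes at least as abundant, 53.6% were lower in the deeper KO male library and the median difference was -0.02. Of the perivenous genes 9 of 15 were lower there, with a median of -0.11. The deeper KO male library held the lowest of the 8 values for 12 of 16 periportal genes. Of the 15 perivenous genes, it held the lowest value for 5 and the highest for 4.

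Without the deeper KO male library, the periportal median of KO males over control males by limma voom was -0.07, and without the shallower one it was -0.81, beside -0.46 with all libraries. The number of members that voom called in males went with it, 2 without the deeper library (Etnppl and Cyp2f2) and 9 without the shallower one. Without the deeper KO male library, the log2 difference of Etnppl was -1.70 with a limma voom adjusted p of 0.00405 and that of Cyp2f2 was -0.90 with 0.0435. Without that library, limma voom gave adjusted p of 0.162 for Hsd17b13, 0.194 for Rhbg and 0.222 for Sult5a1. Without either of the 2 control male libraries, voom called 0 members, with 11 at an unadjusted p under 0.05 when the deeper was left out and 8 when the shallower was. In females the periportal median by voom stayed between -0.42 and -0.21 when any 1 of the 8 libraries was left out.

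Summed cell type markers were also compared between the male libraries. Markers of the pancreas, 6 genes such as Prss2 and Ctrb1, summed to 0.499 and 1.77 FPKM in KO males and to 0 in both control male libraries. These KO male sums rest on only 15 and 54 reads. Hepatocyte markers summed to 14206 and 15064 FPKM in KO males, against 19522 and 15032 FPKM in control males. Kupffer cell markers were higher in KO males for 8 of 8 genes, summing to 50.3 and 50.9 FPKM against 33.3 and 34.7 FPKM in control males. Endothelial markers, 7 genes, summed to 32.8 and 40.4 FPKM in KO males against 33.3 and 38.6 FPKM in control males. The Kupffer sums were near equal in the KO male libraries, and so were the cholangiocyte sums, at 2.78 and 2.72 FPKM. Stellate markers, 6 genes, summed to 30.02 and 35.7 FPKM in KO males against 31.5 and 40.8 FPKM in control males. Leukocyte markers, 8 genes, summed to 3.25 and 3.93 FPKM in KO males against 1.64 and 3.41 FPKM in control males. Hepatocyte, endothelial, pancreas, stellate and leukocyte sums were lower in the deeper KO male library, as most periportal genes were. The part of these cell types in the zonation values was not tested. Both KO female libraries carry the title code G137 and both control female libraries G138, so that code and genotype cannot be told apart in females. In males 1 KO library carries the code G138 and the other G140, and both control libraries carry G140. Which of the KO male titles belongs to the deeper library is not known, so the part of the code in the split between these libraries was not tested.

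**Figure D4:**
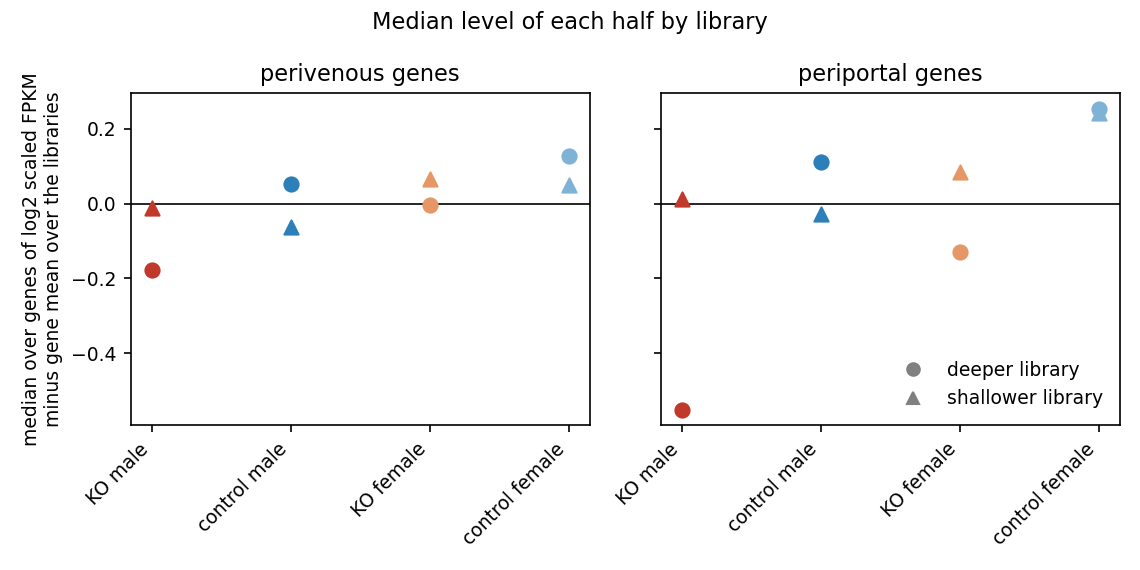
Median over the perivenous genes (left) and the periportal genes (right) of log2 scaled FPKM minus the gene's mean over the 8 libraries; circles are the deeper and triangles the shallower library of a group. The deeper KO male library lies at -0.55 for the periportal genes while the shallower lies at 0.01, within the span of the other groups.

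Among the perivenous genes, Glul, the glutamine synthetase of the hepatocytes next to the central vein, had 84.8 and 94.3 FPKM in KO males against 104.6 and 117 FPKM in control males. In females it had 130.1 and 106 FPKM in KO livers against 118 and 121 FPKM in control livers. The male groups did not overlap and the female groups did, and adjusted p was 1 in both sexes in the authors' deposited table. Oat, the ornithine aminotransferase found in the same cells, had 47.2 and 72.2 FPKM in KO males against 83.5 and 89.7 FPKM in control males. It had 71.9 and 84.7 FPKM in KO females against 128.9 and 84.0 FPKM in control females, and adjusted p in the authors' deposited table was 0.519 in males and 0.280 in females. Slc1a2, a glutamate transporter gene, ran from 4.62 to 9.18 FPKM over all libraries, both extremes in males.

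Neither of the drug-metabolising perivenous genes Cyp2e1 and Cyp1a2 was called in a KO comparison. Cyp2e1 had 1171 and 1623 FPKM in KO males against 1430 and 1513 FPKM in control males, and 1428 and 1364 FPKM in KO females against 1406 and 1452 FPKM in control females. The KO male libraries again lay on either side of the controls. Cyp1a2, which oxidises caffeine, had 129 and 171 FPKM in KO males against 188 and 224 FPKM in control males, a log2 ratio of -0.44 in the authors' deposited table (adjusted p = 0.711). The groups did not overlap, and the unadjusted p was 0.0432 in the authors' deposited table, while limma voom gave an adjusted p of 0.312.

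Direct markers of beta-catenin activity gave no call. Axin2, the feedback inhibitor of the pathway, had 0.630 and 0.732 FPKM in KO males against 0.677 and 1.33 FPKM in control males. Lgr5, the R-spondin receptor, had 0.697 and 0.913 FPKM in KO males against 0.641 and 0.857 FPKM in control males. Their reads ran from 25 to 157 per library, so a small difference was not detectable at this depth.

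In females Axin2 had 0.803 and 0.588 FPKM in KO livers against 1.06 and 0.796 FPKM in control livers, and Lgr5 had 1.07 and 1.18 FPKM in KO livers against 0.680 and 0.692 FPKM in control livers. Their log2 ratios in the authors' deposited table were -0.57 and 0.58, with adjusted p of 0.615 and 0.366. Tbx3, a transcription factor gene that beta-catenin activates, and Rnf43, a ubiquitin ligase that removes Wnt receptors, had log2 ratios of -0.35 and 0.04 in males and -0.49 and -0.37 in females in the authors' deposited table. The lowest of their adjusted p there was 0.410.

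The remaining perivenous genes were likewise uncalled in both KO comparisons. Rgn, the gluconolactonase regucalcin, had 188 and 243 FPKM in KO males against 298 and 278 FPKM in control males, and 268 and 286 FPKM in KO females against 364 and 363 FPKM in control females. The groups did not overlap in either sex, and adjusted p in the authors' deposited table was 0.886 in males and 0.109 in females. Gulo, which makes vitamin C in mice, the secreted factor gene Lect2 and Slc22a3 had log2 ratios between 0.12 and 0.53 in both sexes in the authors' deposited table. With scaled FPKM, 4 of the 31 members were higher and 14 lower in KO males without overlap, against 20.6% and 25.2% of the genes at least as abundant. In females 8 were higher and 15 lower, against 22.5% and 21.1%.

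The sexes were also compared with each other. Both control male libraries carry the title code G140 and both control female libraries G138. KO male libraries carry G138 and G140, and both KO female libraries carry G137. The compared groups thus share no code, and code and sex cannot be told apart in either comparison. Between control males and control females, 2 of 31 members were called in the authors' deposited table, against 1.47% of all genes and 2.83% of the genes at least as abundant. Cyp2f2 was 2.8-fold higher in control males (adjusted p = 6.45e-10) in the authors' deposited table, with the FPKM given above. Its limma voom log2 difference was 1.51 (standard error 0.23, adjusted p = 0.0231), the 1 member that voom called, against 0.763% of genes. Limma on log2(FPKM + 1) called 0.355% of genes and 0 members, with 4 at an unadjusted p under 0.05. The call was lost without any 1 of the 4 control libraries, and the adjusted p then reached 0.199.

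Ctsc had 10.01 and 7.97 FPKM in control males against 15.6 and 15.7 FPKM in control females. The male libraries lay below the female ones without overlap. Ctsc was 1.87-fold lower in control males by the authors' deposited table (adjusted p = 0.00896), and limma voom gave an adjusted p of 0.0732. In KO livers it had 7.67 and 10.3 FPKM in males against 12.4 and 11.5 FPKM in females, with an adjusted p of 1 in the authors' deposited table.

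Between KO males and KO females, 0 of 31 members were called in the authors' edgeR test, against 1.01% of all genes and 1.9% of those at least as abundant, with 6 members at an unadjusted p under 0.05. Limma voom called 0, against 0.385% of genes, with 10 members at an unadjusted p under 0.05. Limma on log2(FPKM + 1) called 0, against 0.0889% of genes, with 4 such members. Cyp2f2 was 1.79-fold higher in KO males there in the authors' deposited table (adjusted p = 0.116). Whether the knockout changed the sex difference of Cyp2f2 was tested by the interaction, which gave a log2 value of -0.73 (standard error 0.33, adjusted p = 0.948) by limma voom. The sex comparisons share their libraries with the KO comparisons, so these values are not separate evidence.

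Other genes of the zones were taken from lists, with no test over a list. Of 17 other perivenous genes, 3 rose and 1 fell in KO males in the authors' deposited table. Over all genes 2.18% were called there, and 4.23% of those at least as abundant as the lowest member. Slc13a3, a transporter of dicarboxylates, had 10.9 and 8.198 FPKM in KO males against 2.01 and 1.30 FPKM in control males, and 9.88 and 11.5 FPKM in KO females against 3.36 and 3.59 FPKM in control females. Every KO library lay above every control library. By the authors' deposited table Slc13a3 was 5.45-fold higher in males (adjusted p = 6.37e-14) and 2.81-fold higher in females (adjusted p = 1.92e-11). Limma voom called it in both sexes, with adjusted p of 0.00569 and 0.0320.

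The cytochrome genes Cyp2a5, which hydroxylates coumarin, and Cyp2c37 rose in KO males. By the authors' deposited table the rises were 3.18-fold (adjusted p = 1.18e-06) and 2.52-fold (adjusted p = 0.0343). Avpr1a, the vasopressin receptor gene of hepatocytes, was 2.12-fold lower in KO males by the authors' deposited table (adjusted p = 0.00877). Cyp7a1, the rate-limiting enzyme of bile acid synthesis, fell in KO females (adjusted p = 0.0110) in the authors' deposited table. Reads of Cyp2a5 and Cyp2c37 could be split with close paralogs, so their values are uncertain. Limma voom called none of the differences given here for Cyp2a5, Cyp2c37, Avpr1a and Cyp7a1, with an adjusted p of 0.469 for Cyp7a1 in females. Their log2 differences by voom had the same signs.

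Of 11 other periportal genes, which include those of gluconeogenesis and histidine breakdown, 0 were called in KO males or KO females by the authors' edgeR test, with 0 and 2 at an unadjusted p under 0.05. Over all genes that test called 2.18% in KO males and 1.55% in KO females. Limma voom and limma on log2(FPKM + 1) called 0 of the 11 as well. Their median log2 ratios in the authors' deposited table were 0.04 in males and 0.03 in females. Of 4 midlobular genes 0 were called in either KO comparison by the authors' edgeR test, with 2 at an unadjusted p under 0.05 in each, and 0 by limma voom.

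Of 22 genes of the Wnt pathway, from ligands and R-spondins to receptors, the destruction complex and nuclear partners, 0 were called in any of the 4 comparisons by the authors' edgeR test. In each comparison 1 gene had an unadjusted p under 0.05. Over all genes that test called 2.18% in KO against control males and 1.55% in KO against control females. It called 1.47% between control males and control females and 1.01% between KO males and KO females. With shares this small, an absence of calls among 22 genes says little about the pathway. Some of these genes also had few reads, such as Wnt2 with 5 to 50 in a library. Limma voom and limma on log2(FPKM + 1) called 0 of them too. Ctnnb1, the beta-catenin gene itself, averaged 26.02 FPKM over all libraries, with log2 ratios of -0.02 in males and 0.05 in females in the authors' deposited table.

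Of 18 genes that handle ammonia and amino acids, 1 fell in KO males and 1 in KO females in the authors' deposited table. Over all genes 2.18% were called there in KO males and 1.55% in KO females. Among genes at least as abundant as the lowest member these shares were 4.23% and 3.3%. Got1, the cytosolic aspartate aminotransferase, had 31.9 and 32.1 FPKM in KO females against 58.2 and 40.5 FPKM in control females, 1.69-fold lower by the authors' deposited table (adjusted p = 0.0148). In KO males it had 6.78 and 18.2 FPKM against 25.7 and 27.9 FPKM in control males (adjusted p = 0.0620) in the authors' deposited table. Asns, the asparagine synthetase gene, was called lower in KO males in the authors' deposited table (adjusted p = 0.0314), but it had 2 to 19 reads in a library. Limma voom called neither.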

How the data were processed

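Liver RNA was sequenced with a stranded library kit after removal of ribosomal RNA, per the labels' protocols. TopHat2, featureCounts and edgeR with the mm9 build are named in the submitters' processing notes; their versions, the gene annotation used and any filter were not given in the sources. The deposited table gives, per the file headers, the mean FPKM of each of the 4 groups and, for 4 comparisons, the authors' normalized expression ratio with the authors' edgeR p-value and adjusted p-value. The adjusted values equal a Benjamini-Hochberg adjustment over all 24197 genes within 2.5e-08. FPKM divides by a library total. The authors' ratio lay 0.14 below the FPKM ratio (log2, median) in both comparisons with control females. Reads in genes made up 32.8% and 32.3% of the total in control females, deeper library first. They made up 35.5% and 34.9% in KO females and 35.1% and 36.9% in control males. The cause of the offset was not tested.

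Whole reads of the 2 libraries per group were recovered from the means. Of 24197 genes, 6193 had no reads in any group and the other 18004 could each be solved within a tolerance of 1e-08 reads, with FPKM differing by at most 2.2e-11. Simulated reads were recovered without error in 181 of 181 genes of 50 or more reads. Recovered libraries are known by depth only and were not tied to pool numbers. Reads in genes ran from 2288033 to 11361272 per library, which limits precision for genes of few reads.

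A gene was called where the authors' adjusted p was under 0.05. Beside these calls stand limma 3.58.1 (R 4.3.3) fits of the recovered libraries: voom on 12980 genes with at least 10 reads in at least 2 libraries, sizes scaled by the median of ratios, and limma with trend on log2(FPKM + 1), both with 4 residual degrees of freedom and Benjamini-Hochberg adjustment. Scaled FPKM uses the same sizes. The self-test of voom on simulated counts is not quoted. All 31 members are accounted for; of the other lists, any gene under the threshold in any comparison could be named. Ctnnb1 was named outside that rule, after its values were seen. Members, lists and tests were chosen with earlier results of these data known. Promoters are from RefSeq on GRCm38.p6 and were not converted to mm9. Means are of 2 libraries.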

Additional observations from a re-analysis of the deposited data

Results flagged for a closer look

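Cyp7a1, the rate-limiting enzyme of bile acid synthesis and one of the other perivenous genes, stood out because its libraries moved in opposite directions in the sexes. It had 72.0 and 67.0 FPKM in KO males against 43.6 and 19.9 FPKM in control males, and 20.9 and 37.7 FPKM in KO females against 56.5 and 48.1 FPKM in control females. The knockout difference in males minus that in females was 2.30 on the log2 scale by limma voom, with an unadjusted interaction p of 0.00311 and an adjusted p of 0.720. In the authors' deposited table the adjusted p was 0.0636 for the higher level in males and 0.0110 for the fall in females. Limma voom gave adjusted p of 0.195 in males and 0.469 in females.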

How the results depend on the processing

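No paired analysis was possible because the table holds group means and the recovered libraries cannot be tied to pool numbers; the replicate block was therefore not run. Of 31 members, the count called was 5 in KO against control males, 4 in KO against control females and 2 in control males against control females by the authors' test. In that order limma voom called 3, 0 and 1, voom without the read filter 3, 1 and 1, voom with library totals as scaling 3, 0 and 1, and limma on log2(FPKM + 1) or on log2(FPKM + 0.1) 0, 0 and 0. With the authors' adjusted p under 0.01 the females had 2. When 1 library was left out, voom called 0 to 9, 0 to 1 and 0 to 1 members, 0 to 2 in KO males against KO females and 0 for the interaction. Of the 11 single calls of members, voom kept 4 and limma on log2(FPKM + 1) kept 0, with 0 reversed. A group left with 1 library was assumed to vary like the others. The causes were not tested. Medians that involve control females moved with the scaling. By the ratio of mean FPKM and by voom with library totals, the perivenous median was -0.018 and -0.027 in KO against control females and -0.040 and -0.104 in control males against control females. The periportal median was -0.18 and -0.18 in KO against control females and -0.0387 and -0.0390 in control males against control females. With 1 library left out, the periportal medians ran from -0.81 to -0.066 and from -0.42 to -0.21 in the male and female KO comparisons, from -0.27 to -0.080 between control males and control females, and from -0.56 to 0.039 between KO males and KO females. The perivenous medians ran from -0.15 to 0.060, -0.17 to -0.088, -0.24 to -0.12 and -0.073 to 0.022 in the same order.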
